A study of Mus musculus with 17 samples.

Results

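The genes of the oxidative phosphorylation machinery were followed through the first 720 min after growth factor withdrawal in cultured mouse neural precursor cells. Members were taken by name from the platform annotation: symbols that begin with Nduf, Uqcr or Atp5, symbols that begin with Cox followed by a digit from 4 to 8, and the genes Sdha to Sdhd. This gave 81 of 18256 named genes, each with 1 probe. They comprised 32 subunits of complex I, 7 complex I assembly factors of the NDUFAF series, 4 subunits of complex II, 6 of complex III, 16 of complex IV, 15 of complex V and Cox7a2l, which is counted here with no single complex. Ndufa4 carries a complex I name but is known as a subunit of complex IV and was counted there. Subunits encoded by mitochondrial DNA do not match the name rule and were not analysed here.

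The cells were neural precursor cells from the adult hippocampus, grown on coated plates in Neurobasal medium with B27, basic fibroblast growth factor (bFGF) and epidermal growth factor (EGF). Both factors were then withdrawn to start differentiation, and total RNA was taken at 17 times, with 1 Illumina bead array at each. For testing, 5 arrays at 0 to 60 min formed the early window, 4 at 90 to 180 min the second, 3 at 240 to 360 min the third, and 5 at 420 to 720 min the late window. All arrays other than 0 min therefore carry the withdrawal, the early window included, and no array came from cells that kept the factors. The labels give no strain, age or genotype and name no separate cultures, so neighbouring times stand in for replicates and each p-value measures the spread within 1 series of arrays.

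Oxidative phosphorylation passes electrons from NADH (complex I) and succinate (complex II) through ubiquinone to complex III, then by cytochrome c to complex IV, where oxygen is reduced. Complexes I, III and IV pump protons across the inner mitochondrial membrane, and complex V, the ATP synthase, uses the return flow to make ATP. Most subunits are encoded in the nucleus, and dedicated assembly factors, which are absent from the finished enzyme, build each complex. In the brain, neural precursor cells rely to a large degree on glycolysis, and neurons rely on oxidative phosphorylation.

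Values are on a log2 scale. A probe was tested if its mean over the 17 arrays reached the median of all probe means, 6.41. Of the 81 genes, 72 passed and 9 did not, and the 9 were Ndufs1, Ndufaf6, Sdha, Uqcrfs1 and the complex IV isoforms Cox4i2, Cox6b2, Cox7b2, Cox8b and Cox8c. Among the 72, mean signals ran from 6.84 to 14.66 with a median of 12.28, beside a median of 8.73 over all 9940 features tested. The array medians lay between 6.40 and 6.42, and any pair of arrays correlated at 0.972 or more over all probes. Of the neural precursor markers, 8 of 9 on the array passed the filter, and the log2 of the mean linear signal of the 9 lay between 12.08 and 12.16 in the early window and between 11.86 and 12.20 in the late window. Its members went both ways: late changes were -0.89 for Nes, -0.41 for Fabp7, -0.34 for Slc1a3, 0.73 for Sox2 and 0.90 for Notch1, all past the threshold, while Vim, Sox9 and Hes1 did not pass. None of the 6 microglia markers passed, nor the 1 blood marker. Of the neuron markers, 1 of 8 (Map2) passed, and Dcx and Tubb3 were below the filter. The astrocyte list, with 3 of 5 above the filter, lay at 6.21 to 6.33 early and at 7.19 to 7.81 late. Late changes were 2.13 for S100b and 1.07 for Gfap, while that of Aldh1l1, 0.08, did not pass. Below the filter, Aqp4 changed by 0.75 and Gja1 by 0.07 in a fit without it. The oligodendrocyte list, with 6 of 9, lay at 11.42 to 11.65 and then 11.49 to 11.81, a level set mostly by Olig1 (14.70 early, 14.71 late). Of its 6 markers above the filter 4 were higher late, namely Cnp by 2.25, Mbp by 1.39, Pdgfra by 1.33 and Cspg4 by 0.39. S100b, Gfap, Mbp and Pdgfra had early means under the filter and passed it through their later levels. The endothelial and mural list, with 3 of 7, lay at 7.38 to 7.65 and then 6.61 to 7.32. This level was set in large part by Acta2 (9.55 early, 8.84 late). Late changes were -0.76 for Flt1, -0.71 for Acta2 and -0.36 for Tek, and the 4 other markers were below the filter. The part of these cell types in the results below was not tested, and in bulk RNA fewer cells of a type and less RNA per cell cannot be told apart.

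The nuclear genes of oxidative phosphorylation are known for short promoter motifs of the transcription factors NRF1, GABPA and YY1. Promoters of 3 assembly factors that fell and of 1 complex I subunit that rose are shown because they carry such motifs, 250 bases before to 50 after the start of transcription (RefSeq, GRCm38.p6). Capitals mark the motif GCATGCGC of NRF1, CCGGAAG of GABPA and AAGATGGCG of YY1, read on both strands. The Ndufaf4 promoter is at chr4:24897833-24898132 on the plus strand, that of Ndufaf5 at chr2:140170396-140170695 on the plus strand, that of Ndufaf8 at chr11:120098684-120098983 on the plus strand and that of Ndufa6 at chr15:82354242-82354541 on the minus strand.
Ndufaf4: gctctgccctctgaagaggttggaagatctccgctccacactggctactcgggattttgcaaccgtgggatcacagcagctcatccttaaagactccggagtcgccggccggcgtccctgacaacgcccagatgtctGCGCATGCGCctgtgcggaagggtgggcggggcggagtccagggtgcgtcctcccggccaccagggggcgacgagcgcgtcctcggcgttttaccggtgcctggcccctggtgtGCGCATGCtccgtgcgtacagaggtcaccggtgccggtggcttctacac
Ndufaf5: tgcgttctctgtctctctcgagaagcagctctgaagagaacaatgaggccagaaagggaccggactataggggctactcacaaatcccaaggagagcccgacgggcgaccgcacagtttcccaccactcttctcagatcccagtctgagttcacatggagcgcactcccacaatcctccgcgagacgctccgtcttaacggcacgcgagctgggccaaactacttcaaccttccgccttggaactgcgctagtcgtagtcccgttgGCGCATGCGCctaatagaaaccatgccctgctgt
Ndufaf8: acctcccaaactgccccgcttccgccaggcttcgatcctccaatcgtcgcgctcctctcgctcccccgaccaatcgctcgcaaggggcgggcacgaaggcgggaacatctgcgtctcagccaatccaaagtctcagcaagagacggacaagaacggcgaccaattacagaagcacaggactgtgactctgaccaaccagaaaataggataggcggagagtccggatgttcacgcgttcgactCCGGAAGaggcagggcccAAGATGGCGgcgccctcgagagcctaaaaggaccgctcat
Ndufa6: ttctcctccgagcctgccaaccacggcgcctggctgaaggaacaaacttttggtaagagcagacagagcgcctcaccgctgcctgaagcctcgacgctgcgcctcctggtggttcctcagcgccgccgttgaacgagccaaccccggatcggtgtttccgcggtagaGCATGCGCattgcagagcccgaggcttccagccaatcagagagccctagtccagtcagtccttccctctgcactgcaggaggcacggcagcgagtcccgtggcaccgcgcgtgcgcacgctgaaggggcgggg
Ndufaf4 holds 3 NRF1 matches, of which the upstream pair overlaps as GCATGCGC read on both strands, and Ndufaf5 holds 2 that overlap in the same way. Ndufaf8 holds 1 GABPA and 1 YY1 match, and Ndufa6 holds 1 NRF1 match. For Ndufaf5 the start of transcription used lies downstream of the start of the gene coordinates given below.

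RefSeq promoters were found for 68 of the 81 genes, with 73 promoters in all. The NRF1 spelling GCATGCGC was in 16.4% of these 73 and in 2.71% of all 32851 mouse promoters of the same length. The GABPA spelling CCGGAAG was in 23.3% against 8.86%, and a longer spelling of an ETS site, CGGAAGTG, was in 5.48% against 3.44%. The YY1 spelling AAGATGGCG was in 11.0% against 1.4%, and the E-box CACGTG, bound by MYC, in 8.22% against 7.15%. No test was made of these shares. Of the 11 genes with a promoter that were higher late, the NRF1, GABPA, YY1 and E-box spellings were in 3, 0, 0 and 1, and of the 6 that were lower late, in 2, 2, 1 and 0.

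Over the whole time course, 17 of the 72 genes (23.6%) changed, beside 61.9% of all features tested (limma's moderated F test, Benjamini-Hochberg adjusted p under 0.05). In the late window 16 of the 72 were higher than in the early window, beside 27.9% of all features, and 6 were lower, beside 27.0%. Together these were 30.6% of the 72, and 54.9% of all features. The median late change was 0.09 on the log2 scale, against 0.00 over all features, and the median size of the change regardless of sign was 0.12 against 0.27. A late change above 0 was measured for 51 of the 72 genes, and for 4973 of 9940 features. The 50 genes that did not pass had late changes between -0.16 and 0.25. The median standard error of the late change was 0.09 and the median 95% interval reached 0.19 to each side, so that changes of about that size in single genes would not have been detectable.

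Most members are bright, and among the 2757 features with a mean of at least 10 (a limit chosen after seeing the data), 55.7% differed in the late window and 61.2% changed over time. Of the 59 members in that range, 14 were higher and 3 lower in the late window, and 12 changed over time.

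**Figure D1:**
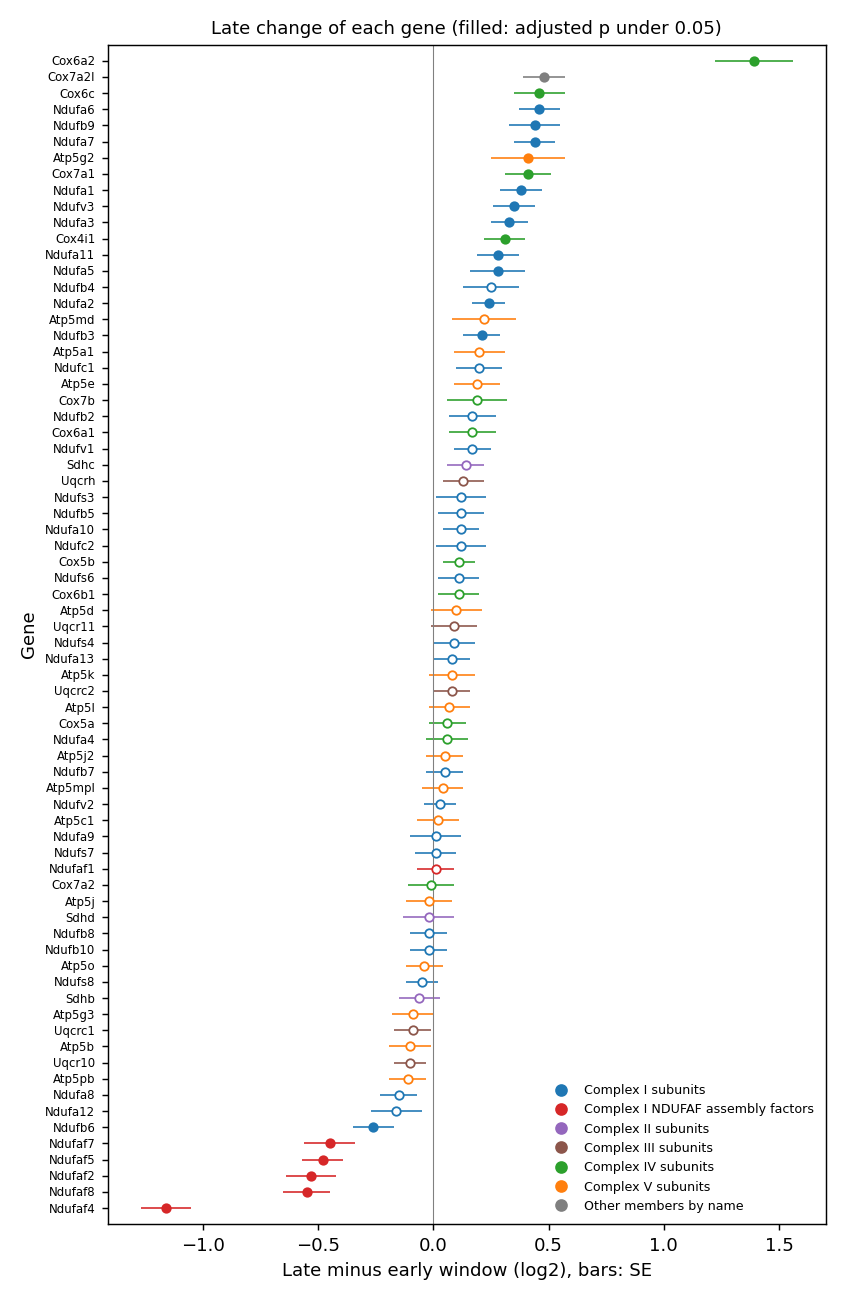
Late minus early window on the log2 scale for each of the 72 genes above the filter, coloured by complex. Circles are limma estimates from 5 arrays in each window, bars are standard errors and filled circles have an adjusted p under 0.05. Cox6a2 lies far to the right at 1.39, Ndufaf4 far to the left at -1.16, and the 50 open circles lie between -0.16 and 0.25.

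More genes were called in each later window, as was the case for all features (11.6%, 35.0% and 54.9%). The median change of the 72 was 0.04 in the second window, 0.04 in the third and 0.09 in the late window. In the second window 0 of the 72 genes were higher (5.48% of all features) and 2 were lower (6.13%), the assembly factors Ndufaf4 and Ndufaf7. In that comparison the count higher was 2 without the array at 45 min and 1 without 90 min. The count lower was 0 without 150 or 180 min, 1 without any of 0, 15, 30, 45, 90, 120, 300, 360, 420, 480 or 540 min, and 2 without any of the others. In the third window 7 were higher (17.0% of all features) and 3 were lower (18.0%). Of these, 5 and 3 were also higher and lower in the late window. Without the array at 300 min the counts of the third window were 3 and 1, and without 360 min the count higher was 4. Set directly against the second window, the late window had 11 genes higher (22.1% of all features) and 4 lower (20.8%), where 6 were higher without the array at 90 min and 7 without 120 min.

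For 13 genes every late array lay above every early array (19.4% of all features), and for 4 every late array lay below (19.1%). The 4 were all assembly factors, Ndufaf2, Ndufaf4, Ndufaf5 and Ndufaf8. The 66 structural subunits, with Cox7a2l among them, had a mean deviation from their early level of 0.01 at 150 min, 0.15 at 180 min, 0.10 at 240 min, 0.18 at 420 min, 0.06 at 600 min and 0.16 at 720 min. On the array at 180 min 54 of the 66 lay above their early mean, against 31 at 150 min and 33 at 600 min. The single arrays thus differed together by about as much as the median change of the group.

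**Figure D2:**
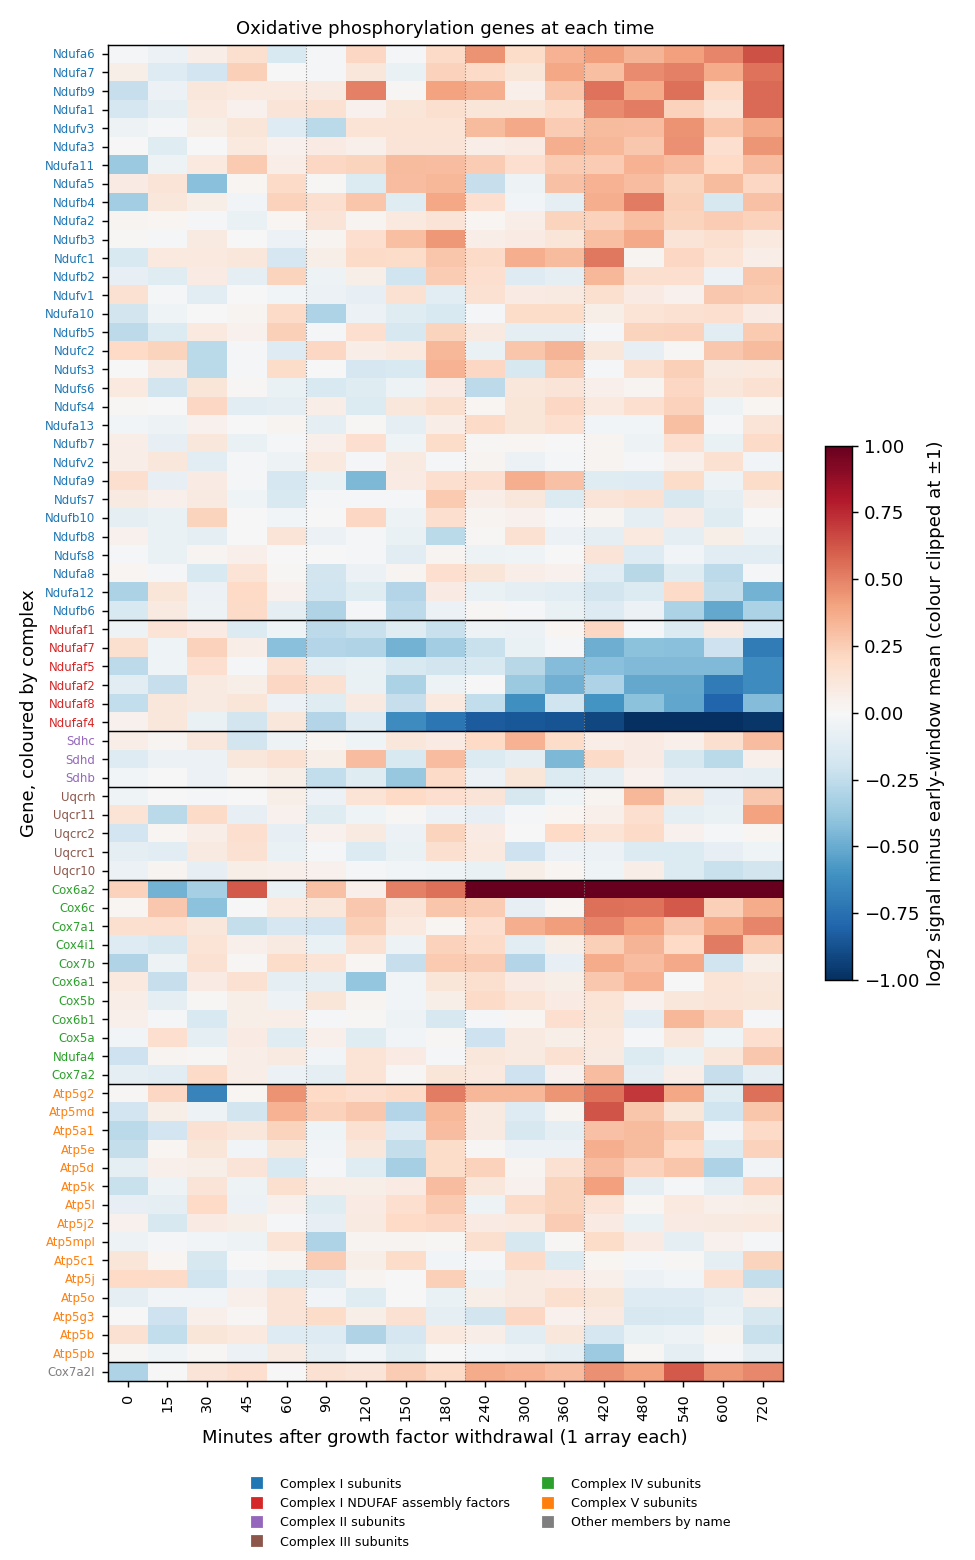
Log2 signal minus the mean of the early window for 72 genes (rows, grouped by complex and ordered by late change) on each of 17 arrays (columns, minutes after growth factor withdrawal). Colours are clipped at 1 and -1, dotted lines separate the 4 windows, and the blue block of 5 NDUFAF genes and the red row of Cox6a2 stand out from mostly pale rows.

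Of the 6 members that fell in the late window, 5 were complex I assembly factors. In this group 5 of the 6 genes above the filter (83.3%) fell, beside 27.0% of all features, and 0 rose, beside 27.9%. The median change was -0.50, and the same 5 changed over the time course, beside 61.9% of all features. Averaged over the 6, the deviation from the early level was -0.12 at 120 min, -0.32 at 150 min, -0.37 at 300 min, -0.42 at 420 min and -0.58 at 720 min. The genes of this group that fell act at different stages of complex I assembly. Each of the 5 late calls held with any 1 of the 17 arrays left out.

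Ndufaf4 (chr4:24898083-24905001, GRCm38.p6), which in human cells works with NDUFAF3 in early assembly of the part that binds ubiquinone, fell most. Its log2 signals were 11.46, 11.53, 11.35, 11.24 and 11.53 in the early window, 11.13, 11.29, 10.79 and 10.70 in the second, 10.59, 10.57 and 10.56 in the third and 10.51, 10.21, 10.11, 10.03 and 10.45 in the late window. All late arrays lay below all early arrays, and every array from 150 min on lay below every earlier one. The mean fell from 11.42 ± 0.12 (SD, n = 5) to 10.26 ± 0.21 (SD, n = 5), a change of -1.16 (SE 0.11, limma adjusted p = 1.3e-08) or 2.2-fold. The change was already -0.45 in the second window (SE 0.12, limma adjusted p = 0.0138) and -0.85 in the third (SE 0.13, limma adjusted p = 2.1e-05). The call in the second window was lost without the array at 150 min or 180 min, with a highest adjusted p of 0.0879.

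Ndufaf8 (chr11:120098934-120100424) encodes a protein that in human cells stabilises NDUFAF5, and Ndufaf5 (chr2:140170584-140218965) encodes a hydroxylase of the complex I subunit NDUFS7. Ndufaf8 had early signals of 9.33, 9.69, 9.67, 9.70 and 9.52 and late signals of 8.98, 9.17, 9.06, 8.79 and 9.15. Ndufaf5 had early signals of 8.97, 9.19, 9.40, 9.22 and 9.38 and late signals of 8.81, 8.79, 8.79, 8.79 and 8.60. For both genes all late arrays lay below all early ones. Ndufaf8 fell by 0.55 on the log2 scale (SE 0.10, limma adjusted p = 1.0e-04) and Ndufaf5 by 0.48 (SE 0.09, limma adjusted p = 7.9e-05). In the second window their changes were -0.04 and -0.13 and did not pass, and in the third they were -0.36 (limma adjusted p = 0.0231) and -0.29 (limma adjusted p = 0.0295). Those calls of the third window were lost without 15, 45 or 300 min for Ndufaf8 and without 30, 60, 300 or 360 min for Ndufaf5, with a highest adjusted p of 0.201 and 0.173.

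Ndufaf2 (chr13:108052589-108158652), a late-stage factor related in sequence to the subunit NDUFA12, had early signals of 11.24, 11.12, 11.44, 11.41 and 11.56 and late signals of 11.04, 10.84, 10.84, 10.65 and 10.72. The groups did not overlap, and the mean fell by 0.53 (SE 0.11, limma adjusted p = 2.7e-04). Ndufaf7 (chr17:78937106-78948052), an arginine methyltransferase, had early signals of 9.30, 9.10, 9.37, 9.21 and 8.72 and late signals of 8.65, 8.73, 8.72, 8.93 and 8.44. The array at 60 min was already as low as the late ones, so the groups overlapped, and the late change was -0.45 (SE 0.11, limma adjusted p = 0.00126). Its course was not a steady one: the change was -0.35 in the second window (limma adjusted p = 0.0484) and -0.10 in the third (limma adjusted p = 0.577). The call in the second window was lost in 13 of 17 fits with 1 array left out, among them the fit without 150 min, with a highest adjusted p of 0.14.

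Ndufaf1, which takes part in assembly of the membrane arm, did not pass. Its mean was 10.66 ± 0.11 (SD, n = 5) in the early and 10.66 ± 0.15 (SD, n = 5) in the late window, and the 95% interval of the difference ran from -0.16 to 0.18. Ndufaf6 was below the filter with a mean of 5.67.

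**Figure D3:**
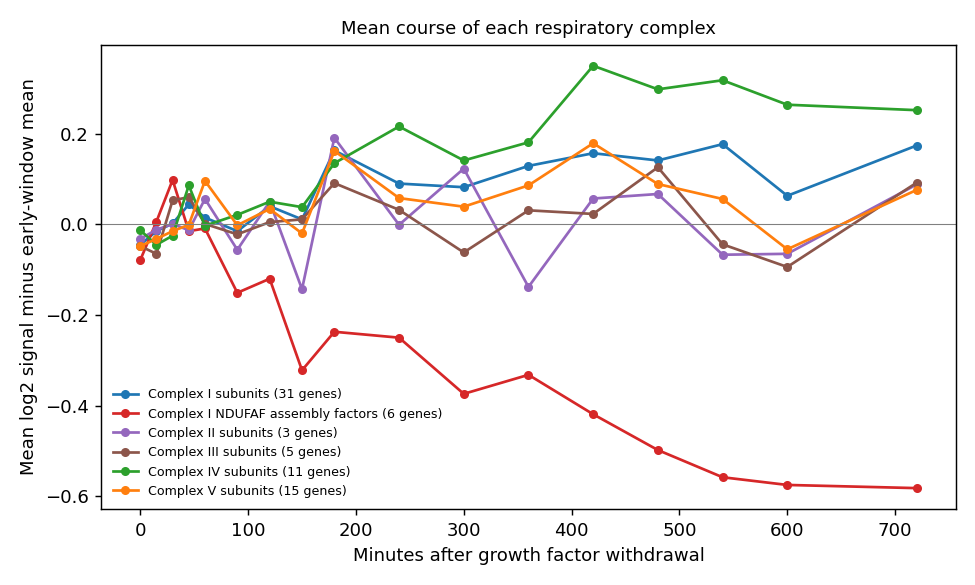
Mean log2 signal minus the early-window mean for the genes above the filter in each group (vertical axis) against minutes after growth factor withdrawal (horizontal axis), with 1 point per array. The NDUFAF line falls to -0.58 at 720 min, and complexes II, III and V stay within 0.19 of 0. The complex IV line lies at 0.25 to 0.35 from 420 min on. It includes Cox6a2, with a late change of 1.39, and the median over its 11 genes on those arrays was 0.14 to 0.31.

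Of the 31 complex I subunits above the filter, 10 rose in the late window, 1 fell and 20 did not pass. The 11 that passed were 35.5% of the 31, beside 54.9% of all features, and the median change was 0.12. Over the time course 8 were called (25.8%), beside 61.9% of all features. The matrix arm, which takes electrons from NADH to ubiquinone, had 5 risers among 14 subunits, and the membrane arm, which pumps protons, had 5 risers and the 1 that fell among 17. The 10 risers were all accessory subunits, as was Ndufb6, the one that fell. Of the core subunits Ndufv1, Ndufv2, Ndufs3, Ndufs7 and Ndufs8, which hold the flavin or iron-sulfur clusters or lie along the path of the electrons, 0 of 5 passed, with late changes of 0.17, 0.03, 0.12, 0.01 and -0.05. These 5 were the only core subunits among the 31 tested, and all the others were accessory, so most calls could be expected among accessory subunits. This division into core and accessory subunits was made after the values were seen, and the difference was not tested. The core subunit Ndufs1 was below the filter.

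Ndufa6 (chr15:82350139-82354291), an accessory subunit of the matrix arm that binds an acyl carrier protein, had early signals of 11.87, 11.82, 11.95, 12.04 and 11.73 and late signals of 12.30, 12.22, 12.29, 12.37 and 12.52. Every late array lay above every early one. The rise was 0.46 (SE 0.09, limma adjusted p = 1.1e-04), with 0.33 already in the third window (SE 0.10, limma adjusted p = 0.013, lost without 240 min at 0.0753). Ndufa7 (chr17:33824572-33838316), also of the matrix arm, had early signals of 12.06, 11.87, 11.81, 12.24 and 12.00 and late signals of 12.30, 12.47, 12.50, 12.37 and 12.54. These did not overlap either, and the rise was 0.44 (SE 0.09, limma adjusted p = 3.2e-04).

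In the membrane arm, Ndufb9 (chr15:58933801-58939516), which binds the acyl carrier protein there, had early signals of 9.91, 10.08, 10.25, 10.24 and 10.24 and late signals of 10.68, 10.51, 10.69, 10.33 and 10.71. Ndufa1 (chrX:37187588-37191238), a small membrane-arm subunit, had early signals of 12.32, 12.39, 12.59, 12.53 and 12.62 and late signals of 12.96, 13.00, 12.72, 12.63 and 13.06. The late arrays lay above the early ones for both, by a margin of 0.01 for Ndufa1 between 60 and 600 min. Ndufb9 rose by 0.44 (SE 0.11, limma adjusted p = 0.0014) and Ndufa1 by 0.38 (SE 0.09, limma adjusted p = 8.8e-04).

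The other 6 risers of complex I were Ndufv3, Ndufa3, Ndufa11, Ndufa5, Ndufa2 and Ndufb3, with late changes between 0.21 and 0.35. The calls of Ndufa11, Ndufa5 and Ndufb3 depended on single arrays. Ndufa11 had 10.07 at 0 min against 10.39 to 10.70 on the other early arrays, and its rise of 0.28 was 0.19 and no longer passed without 0 min (limma adjusted p = 0.0536). The rise of Ndufa5, also 0.28, lost its call without 0, 30, 45, 300, 420, 480, 540 or 600 min, with a lowest value of 0.18 and a highest adjusted p of 0.176. For Ndufb3 the arrays were 0, 15, 45, 60, 420 and 480 min, with a lowest value of 0.17 and a highest adjusted p of 0.0999. Ndufb6, an accessory subunit of the membrane arm, had early signals of 12.87, 13.11, 12.97, 13.21 and 12.92 and late signals of 12.89, 12.96, 12.70, 12.51 and 12.70. Its groups overlapped, the change was -0.26 (SE 0.09, limma adjusted p = 0.0214), and the call was lost without 15, 45 or 600 min (highest adjusted p 0.0771).

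Ndufc1, a membrane-arm subunit, was called over the time course (limma adjusted p = 0.0413) and in the third window, at 0.29 (limma adjusted p = 0.0424), and its late change of 0.20 did not pass (limma adjusted p = 0.0806). The first call was lost in 10 of 17 fits with 1 array left out and the second without 0, 60, 300, 360 or 540 min, with highest adjusted p-values of 0.107 and 0.145. Ndufv3, a subunit beside the NADH-binding site, rose by 0.32 in the third window (limma adjusted p = 0.0164, lost without 300 min at 0.0757) and by 0.35 in the late window (SE 0.09, limma adjusted p = 0.00149). Its late call held with any 1 array left out.

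Complex II, succinate dehydrogenase, joins the citric acid cycle to the respiratory chain. Of its 3 subunits above the filter, 0 passed late and 0 over the time course, beside 54.9% and 61.9% of all features. Sdhb, the iron-sulfur subunit, had a mean of 11.51 ± 0.05 (SD, n = 5) early and 11.45 ± 0.06 (SD, n = 5) late, and the 95% interval of the difference ran from -0.25 to 0.12. Sdhd, a membrane anchor, had 9.89 ± 0.12 (SD, n = 5) and 9.87 ± 0.19 (SD, n = 5), with an interval from -0.25 to 0.20. Sdhc, the other anchor, had early signals of 12.33, 12.29, 12.37, 12.08 and 12.21, third-window signals of 12.46, 12.61 and 12.44 and late signals of 12.33, 12.34, 12.31, 12.42 and 12.57. It was higher in the third window by 0.24 (SE 0.09, limma adjusted p = 0.0429) and 0.14 higher in the late window, which did not pass (limma adjusted p = 0.153). The third-window call was lost without 15, 45, 60, 240, 300 or 360 min, with a highest adjusted p of 0.19. Sdha, the flavoprotein subunit, was below the filter, with means of 5.76 in both windows.

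Complex III passes electrons from ubiquinol to cytochrome c. Of its 5 subunits above the filter, 0 passed in any window and 0 over the time course, with late changes from -0.10 to 0.13. Over all features, 54.9% were called late and 61.9% over the time course. Uqcrc1, a core subunit that faces the matrix, had early signals of 11.26, 11.24, 11.44, 11.50 and 11.28 and late signals of 11.29, 11.21, 11.21, 11.27 and 11.31. These overlapped, and the 95% interval of the change of -0.09 ran from -0.26 to 0.08. Uqcrh, the hinge subunit that helps bind cytochrome c1 to cytochrome c, changed by 0.13 (SE 0.09, limma adjusted p = 0.206). The median half-width of the interval over the 5 was 0.17. Uqcrfs1, the Rieske iron-sulfur protein, was below the filter with a mean of 6.18.

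Complex IV, cytochrome c oxidase, had 4 risers, 0 falls and 7 that did not pass among 11 genes above the filter, with a median change of 0.17. The risers were 36.4% of the 11, beside 27.9% of all features that were higher and 54.9% called either way, and the 7 had late changes from -0.01 to 0.19. Several of its subunits exist as a widely expressed form and as forms restricted to heart and skeletal muscle, lung or testis. Of 7 restricted isoforms on the array only Cox6a2 and Cox7a1, both of heart and skeletal muscle, passed the filter, and both rose.

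Cox6a2 (chr7:128205435-128206366), which in mice is also expressed in parvalbumin interneurons, had the largest late change of the 72 genes. Its log2 signals were 7.39, 6.69, 6.83, 7.77 and 7.09 in the early window, 7.45, 7.21, 7.66 and 7.71 in the second, 8.32, 8.59 and 8.17 in the third and 8.33, 8.81, 8.64, 8.76 and 8.18 in the late window. The second window overlapped the early one, while all 8 arrays from 240 min on lay above all 9 before. The mean went from 7.16 ± 0.44 (SD, n = 5) to 8.54 ± 0.28 (SD, n = 5), a rise of 1.39 (SE 0.17, limma adjusted p = 2.7e-07) or 2.62-fold. The change was 0.35 in the second window, which did not pass (limma adjusted p = 0.216), and 1.21 in the third (SE 0.19, limma adjusted p = 3.3e-05). The calls of the third and late windows held with any 1 array left out, with late changes from 1.27 to 1.54. The lowest early signals lay near the filter, where background is not separated from signal, which limits the fold change.

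Cox6a1, the widely expressed form of the same subunit, had a mean of 13.02 ± 0.16 (SD, n = 5) early and 13.19 ± 0.14 (SD, n = 5) late, and its late change of 0.17 did not pass (limma adjusted p = 0.147). It was higher late than in the second window by 0.27 (limma adjusted p = 0.0414), a call lost without 90, 120, 420, 480 or 600 min (highest adjusted p 0.208). Cox7a1 (chr7:30184171-30186030) lay near the filter, with early signals of 6.81, 6.82, 6.76, 6.41 and 6.48 and late signals of 7.14, 7.06, 6.92, 7.04 and 7.14. Late arrays lay above early ones, by 0.41 (SE 0.10, limma adjusted p = 0.00129), at a level where background is not separated from signal. Its third-window rise of 0.31 (limma adjusted p = 0.0375) was lost without 45, 60, 300 or 360 min, with a highest adjusted p of 0.159. Cox7a2, the widely expressed form, had means of 10.20 ± 0.13 (SD, n = 5) and 10.19 ± 0.21 (SD, n = 5).

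The dim isoforms were fitted without the filter. Cox4i2, Cox6b2, Cox7b2 and Cox8c had late changes of 0.06, 0.01, 0.04 and 0.03, and Cox8b, a further isoform of heart and skeletal muscle, went from 5.79 ± 0.12 (SD, n = 5) to 6.07 ± 0.22 (SD, n = 5), at 0.28 (limma adjusted p = 0.0265 in the unfiltered fit). Because these isoforms are known from muscle, 18 muscle genes were examined, chosen after the values were seen. Of these, 2 passed the filter, and Ckm, Acta1 and Myod1 were among those below it, with means of 5.55, 5.70 and 5.93. Tnnt1, slow troponin T, had a mean of 6.27 ± 0.14 (SD, n = 5) early and 7.38 ± 0.21 (SD, n = 5) late, and it passed the filter only through its later levels. Ttn, titin, changed by 0.04 (limma adjusted p = 0.729). Actc1, cardiac actin, was below the filter and went from 5.81 ± 0.15 (SD, n = 5) to 6.38 ± 0.15 (SD, n = 5), at 0.54 in the third window and 0.57 in the late window (limma adjusted p = 1.5e-05 in the unfiltered fit). The log2 of the mean linear signal of the list was 5.93 to 6.04 in the early and 6.10 to 6.18 in the late window, and its part in the values of Cox6a2 was not tested.

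Of the widely expressed subunits, Cox4i1 (chr8:120668225-120674209), a nuclear subunit that regulates the enzyme, had early signals of 13.27, 13.24, 13.54, 13.45 and 13.49 and late signals of 13.64, 13.74, 13.60, 13.92 and 13.66. The groups did not overlap, and the rise was 0.31 (SE 0.09, limma adjusted p = 0.00597). Its time-course call (limma adjusted p = 0.0369) was lost without 0, 15, 480 or 600 min, with a highest adjusted p of 0.141. Cox6c (chr15:35931976-35938246), a small membrane subunit, had early signals of 12.81, 13.06, 12.38, 12.79 and 12.89 and late signals of 13.34, 13.33, 13.40, 13.03 and 13.16. The 15 min array reached into the late range. The rise was 0.46 (SE 0.11, limma adjusted p = 8.8e-04), and the time course did not pass (limma adjusted p = 0.0979).

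Cox7a2l (chr17:83501917-83514333), also called SCAF1, is related to the Cox7a subunits and is known in mice for joining complexes III and IV into supercomplexes. Its signals were 11.39, 11.70, 11.83, 11.87 and 11.70 in the early window, 11.85, 11.83, 11.95 and 11.89 in the second, 12.07, 12.05 and 12.01 in the third and 12.16, 12.10, 12.31, 12.13 and 12.18 in the late window. All arrays from 240 min on lay above all earlier ones. It rose by 0.34 in the third window (SE 0.10, limma adjusted p = 0.00881) and by 0.48 in the late window (SE 0.09, limma adjusted p = 5.6e-05), and both calls held with any 1 array left out.

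**Figure D4:**
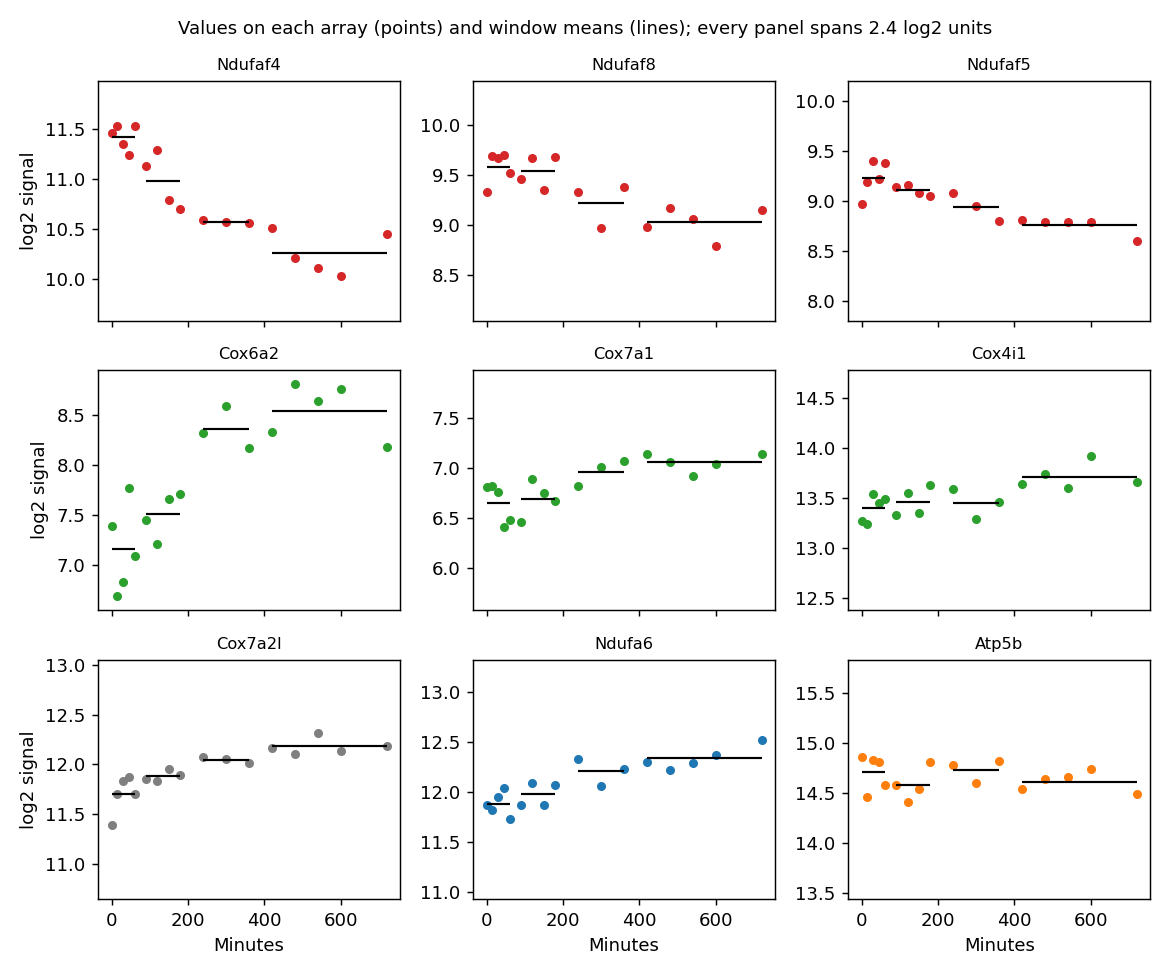
Log2 signal of 9 genes on each of 17 arrays (points) against minutes after growth factor withdrawal, with window means as lines. Every panel spans 2.4 log2 units, so slopes can be compared: Ndufaf4 falls from 11.42 to 10.26, Cox6a2 rises from 7.16 to 8.54, and Atp5b stays between 14.41 and 14.86.

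Complex V, the ATP synthase, had 15 genes above the filter, and 0 of 15 changed over time (61.9% of all features). In the late window 1 rose and 0 fell, beside 27.9% and 27.0% of all features, with a median change of 0.05. The other 14 lay between -0.11 and 0.22, with a median interval half-width of 0.20 over the complex. Atp5b, the catalytic beta subunit, had early signals of 14.86, 14.46, 14.83, 14.81 and 14.58 and late signals of 14.54, 14.64, 14.66, 14.74 and 14.49. These overlapped, and the 95% interval of the change of -0.10 ran from -0.29 to 0.10. Atp5a1, the alpha subunit, changed by 0.20 (SE 0.11, limma adjusted p = 0.119).

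The gene that rose was Atp5g2 (chr15:102662868-102671047). It encodes the proton-carrying c subunit, and its paralogues make the same mature protein. Its early signals were 10.79, 10.99, 10.11, 10.80 and 11.23 and its late signals 11.32, 11.49, 11.17, 10.66 and 11.33. The arrays at 30 and 600 min were low and the groups overlapped. The rise was 0.41 (SE 0.16, limma adjusted p = 0.0326) and fell to 0.24 without 30 min (limma adjusted p = 0.139), and the call was also lost without 0, 45, 420, 480 or 720 min. The paralogue Atp5g3 was brighter by probe, at 14.58 ± 0.12 (SD, n = 5) early and 14.49 ± 0.11 (SD, n = 5) late, and its change of -0.09 did not pass (limma adjusted p = 0.431). Probes of different genes cannot be set against each other in level.

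Pseudogene copies of a member could also be detected by its probe. By symbols that join a member's symbol to the ending -ps, the RefSeq table named pseudogenes of 7 members. Among them were 4 of Atp5k and 2 each of Atp5l and Uqcrh. None of these 7 members was called in the late window, beside 30.6% of the 72 genes and 54.9% of all features. Copies under other names were not searched, so this count does not show that the called members lack them.

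Genes that work beside the complexes were taken from lists outside the name rule. For these lists too, 27.9% of all features were higher late and 27.0% lower, 54.9% in all. Late calls of the genes given with a change below held with any 1 array left out, except those of Prodh and Ssbp1. Cycs, cytochrome c, which carries electrons from complex III to complex IV, had early signals of 12.45, 12.86, 12.83, 12.72 and 13.10 and late signals of 11.97, 12.18, 11.78, 11.79 and 11.74. The groups did not overlap, and Cycs fell by 0.90 (SE 0.12, limma adjusted p = 1.1e-06). Cyc1, the heme subunit of complex III that the name rule leaves out, changed by -0.17 (limma adjusted p = 0.0805).

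Of 32 assembly factors outside the name rule that passed the filter, 3 rose and 11 fell in the late window, with a median of -0.11, and 18 changed over time. These were 43.8% and 56.2% of the list, below the 54.9% and 61.9% of all features. Cox10, which makes heme for complex IV, had early signals of 11.27, 11.19, 11.32, 11.14 and 11.19 and late signals of 10.85, 10.29, 10.76, 10.57 and 10.48, a fall of 0.63 (SE 0.09, limma adjusted p = 4.6e-06) with no overlap. Tmem126b, which helps build the membrane arm of complex I, rose by 0.62 (SE 0.11, limma adjusted p = 6.8e-05). Sdhaf4, an assembly factor of complex II, rose by 0.51 (SE 0.08, limma adjusted p = 1.6e-05). Assembly factors therefore did not all move in the direction of Ndufaf4.

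Of 11 enzymes of the citric acid cycle, 2 rose and 4 fell (54.5% of the list, near the share of all features), with a median of -0.04. Idh3a, a subunit of the NAD-dependent isocitrate dehydrogenase, had early signals of 9.73, 9.54, 9.76, 9.75 and 9.68 and late signals of 8.85, 8.63, 8.73, 8.85 and 8.75, a fall of 0.93 (SE 0.09, limma adjusted p = 1.3e-08) with no overlap. Suclg2, a subunit of succinyl-CoA ligase, fell by 0.42 (limma adjusted p = 1.6e-04) and Cs, citrate synthase, by 0.41 (limma adjusted p = 1.3e-04). Of 7 genes of pyruvate dehydrogenase and its regulation, 4 rose and 1 fell (71.4%), with a median of 0.23. Without 540 or 600 min 2 rose, as Pdha1 and Pdp1 lost their calls, and without 45 min 2 fell. The phosphatase Pdp2 rose by 0.51 (limma adjusted p = 0.00185), the subunit Pdhb by 0.38 (limma adjusted p = 0.00684), and the subunit Dlat fell by 0.45 (limma adjusted p = 0.00142). Of 7 other electron donors to ubiquinone, 1 rose and 3 fell (57.1%), and without 30, 45 or 540 min 1 fell. Etfdh, which passes on electrons from fatty acid oxidation, rose by 0.63 (limma adjusted p = 2.0e-05), while Dhodh, of pyrimidine synthesis, fell by 0.58 (limma adjusted p = 2.7e-04). Prodh, of proline breakdown, fell by 0.24 (limma adjusted p = 0.0269), a call lost without 30, 45, 420 or 540 min (highest adjusted p 0.0826).

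Of 14 regulators of mitochondrial gene expression, 1 rose and 8 fell in the late window (64.3%), with a median of -0.26. The count lower was 6 without 540 min and 7 without 30, 60, 420 or 600 min. The riser, Ssbp1, a protein that binds single-stranded mitochondrial DNA, changed by 0.34 (limma adjusted p = 0.0464) and lost its call in 9 of 17 fits with 1 array left out (without 30, 60, 120, 240, 300, 360, 420, 480 or 720 min, highest adjusted p 0.154), which left 0 risers. Pprc1, a coactivator of the PGC-1 family that answers to serum and growth signals, fell by 1.17 (SE 0.15, limma adjusted p = 7.3e-07). Tfam, which packages and transcribes mitochondrial DNA, fell by 0.48 (SE 0.10, limma adjusted p = 3.2e-04). Esrra, a nuclear receptor that activates genes of oxidative phosphorylation, had means of 9.37 ± 0.08 (SD, n = 5), 8.90 ± 0.16 (SD, n = 4), 8.36 ± 0.03 (SD, n = 3) and 8.90 ± 0.20 (SD, n = 5) in the 4 windows, lowest in the third. Of the factors whose motifs were searched, and which were picked after their values were seen, Nrf1 fell by 0.41 (SE 0.09, limma adjusted p = 5.7e-04) and Gabpa by 0.27 (SE 0.08, limma adjusted p = 0.00983), while Yy1 and Myc were below the filter. The structural subunits, by comparison, had 16 risers and 1 fall among 66, with a median change of 0.11. These calls were 25.8% of the 66, below the 54.9% of all features, of which 27.9% were higher and 27.0% lower. The difference between these lists was not tested.

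**Figure D5:**
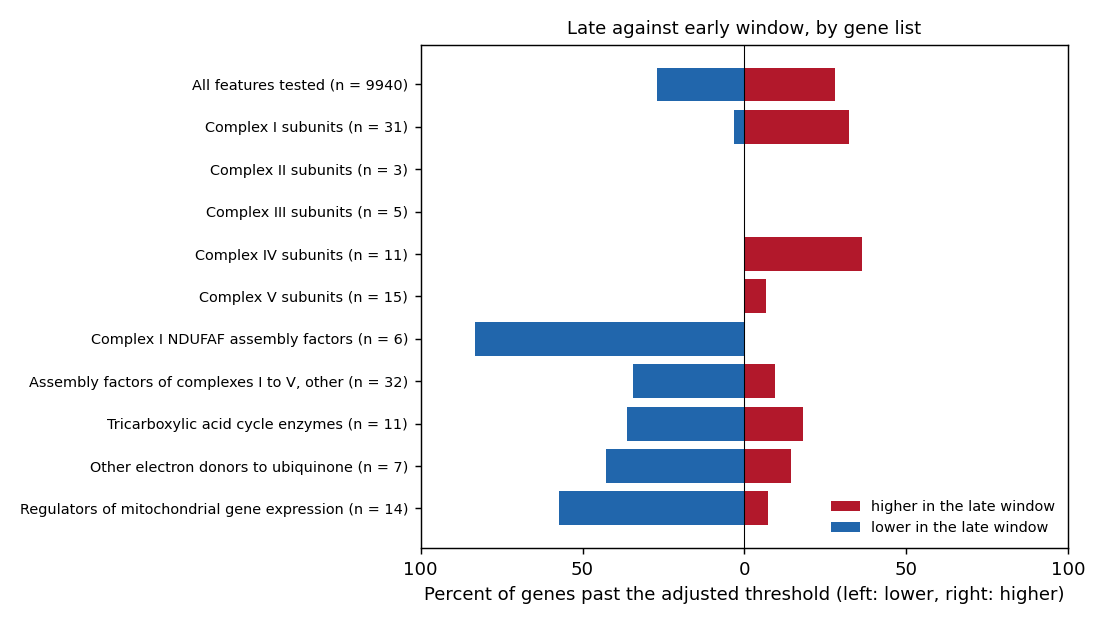
Percent of genes with an adjusted p under 0.05 in the late window, lower to the left and higher to the right. Bars are for all 9940 features and for the lists named on the axis, with the number of genes above the filter in brackets. Cox7a2l and the lists of pyruvate dehydrogenase and of cytochrome c are not drawn. The NDUFAF factors (5 of 6 lower) and the regulators (8 of 14 lower) reach furthest left, and complexes II and III have no bar.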

How the data were processed

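The authors deposited 1 table of values on a log2 scale for 17 arrays, as read from a range of 5.14 to 15.47. The scanner software, background correction and normalization were not given in the sources used here. Sorted values differed by at most 0.135 at 1 rank between arrays, so no further scaling was applied. No detection p-values were used. Of 19949 probes, 18351 had 1 symbol in the platform annotation and 1598 had none. Symbols were updated through the RefSeq table of GRCm38.p6, which changed the names of 305 probes and of no member. A gene with several probes was represented by its brightest. Of all features, 9940 reached a mean of 6.41 and were tested.

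limma 3.58.1 in R 4.3.3 fitted a cubic spline (4 degrees of freedom) on the root of the minutes, and separately the window means, on the whole table, with Benjamini-Hochberg adjustment over 9940 features and a threshold of 0.05. Genes below the filter took values from the same fit without it. The members, gene lists and tests were chosen with earlier results of these data known. Genes named by rule were those with the largest called changes (up to 4 per complex, 3 per other list), all complex II subunits, c subunits and restricted complex IV isoforms. Other genes named were chosen after their values were seen. Of 13 motif spellings searched, 5 are described, chosen after all were counted, and the 8 others are not reported here.

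On simulated data with 9940 features, changes were planted at full sizes of 0.3 and 0.6. Of these, 32% and 88% were recovered in the late window, with 9 false calls. For the time course the shares were 9% and 74%, with 8 false calls. Neighbouring arrays were simulated as independent. The share of changed features was not matched to these data, where 54.9% of features were called late. The adjusted threshold depends on that share, so the recovered shares do not give the sensitivity of the tests here. Alternatives covered the filter, scaling, probe choice, variance model, array weights, spline, window limits and leaving out each array. The number of arrays limits the precision.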

Additional observations from a re-analysis of the deposited data

Results flagged for a closer look

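For each group of 4 or 5 arrays, the gap of the highest or lowest array to its neighbour was set against Dixon's critical value for the genes named by rule. Of 75 groups, 5 (6.67%) exceeded it, and chance gives about 1 in 20. Atp5g2, a c subunit of ATP synthase, had 11.29 at 180 min against 10.95 to 10.98 on the other arrays of the second window. Sdhb, the iron-sulfur subunit of complex II, had 11.55 at 480 min against 11.42 to 11.43 on the other late arrays. Ndufaf5, the complex I assembly factor, had 8.60 at 720 min against 8.79 to 8.81, so its lowest late value is its last. The remaining pair lay below the filter: Sdha had 5.44 at 600 min against 5.79 to 5.92, and Cox8b had 5.70 at 120 min against 5.96 to 5.99.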

How the results depend on the processing

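No paired analysis was possible because each time has 1 array. Of 507 alternative values for the 19 called or tested members named by rule, 494 kept direction and side of the threshold. In 8, all of Atp5g2, the call was lost: without the filter (adjusted p 0.0564), with 180 and 420 min moved to the third window (0.0632), and without 0, 30, 45, 420, 480 or 720 min. In 5, the uncalled change of Sdhd, -0.02, changed sign (-0.08 to 0.04 with 1 array left out), to 0.01 with 60 min in the second window, 0.00 without 45 min, 0.01 without 60 or 540 min and 0.04 without 600 min. The count of members lower in the second window, 2, became 1 without the filter, with the lower quartile as filter, with trend and robust variance, with 60 min in the second window and with a filter at a mean of 10, and 0 with 180 and 420 min in the third window. With 1 array left out it was 0 to 2, and the count higher was 0 to 2. The filter at 10, added after seeing the data, left 59 members, with 3 lower late, 1 lower in the third window and 2 lower late than in the second. With 1 array left out, members higher late numbered 13 to 18, lower late 5 to 6, changing over time 14 to 18, higher in the third window 3 to 8, lower there 1 to 4, higher late than in the second 6 to 12 and lower 4, and the median late change was 0.072 to 0.102. The cause of these shifts was not tested, except that the filter at 10 tests fewer members. Matching names after the symbol update changed no count.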
